A study of Mus musculus with 2 samples.

Results

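The data are 1 spotted microarray of mouse tendon cells sheared for 6 h, 1 of the 2 arrays of a study of mechanical shear in cells of the flexor tendon. Green Cy3 dye marked RNA of pooled control cells taken at 6 h, and red Cy5 dye marked RNA of pooled sheared cells taken at the same time. The other array set control tenocytes against cells sheared at 50 rpm for 12 h, and the shear setting is given in that label alone. The labels give no strain, age or number of pooled animals or cultures. Of 42624 spots, 39776 were measured at 6 h, and 20595 of them carried exactly 1 gene symbol. The median over a gene's probes was taken as its value, which gave 10348 genes out of 10793 with a value on either array, and 10733 had one at 12 h. The spots came without a level, so ratios cannot show whether tendon markers or those of another cell type were present, and fewer cells of a type cannot be told apart from less RNA per cell.

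Tenocytes are the fibroblasts of tendon, which lay down and maintain collagen fibres and meet fluid shear when a tendon glides. Fibroblasts that are stretched, sheared or chemically stressed commonly switch on immediate early genes such as Fos and Myc, and later genes that protect proteins, bind metals or remove oxidants. Metallothioneins bind zinc and copper, heme oxygenase breaks down heme, and heparin-binding EGF is a membrane-tethered growth factor released by proteases.

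All values below are log2 ratios, likely of sheared over control, set to 0 at the median of the array's spots. The base of 2 is assumed. The direction rests on the dyes and on the red-over-green convention of the database that held the images, and every sign would turn if the ratio ran the other way. Centring raised every 6 h value by 0.323, since the deposited median was -0.323. Values at 12 h were centred on that array's own deposited median, -0.479. The results given below without centring are for 6 h alone. Values of 1 are 2-fold differences. With 1 array and no dye swap nothing could be tested, the number of arrays limits the precision, and the only error is the SD between probes of a gene, 0.738 pooled over the 5396 genes with 2 or more probes. Probes are not replicate cultures, and their SD says nothing of how another pool of cells would differ.

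Gene values ran from -6.91 to 5.30, with a median of -0.11 and quartiles at -0.77 and 0.43. At least 2-fold higher values were found for 641 genes (6.19% of those measured) and at least 2-fold lower values for 1951 (18.9%). At 1.5-fold the counts were 1888 higher (18.2%) and 3235 lower (31.3%). The excess of low values varied with the number of probes behind a gene. The 4952 genes with 1 probe had a median of -0.32, and 25.8% of them were 2-fold lower. The 570 genes with 5 or more probes had a median of 0.31, with 3.86% at least 2-fold lower and 11.1% at least 2-fold higher.

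**Figure D1:**
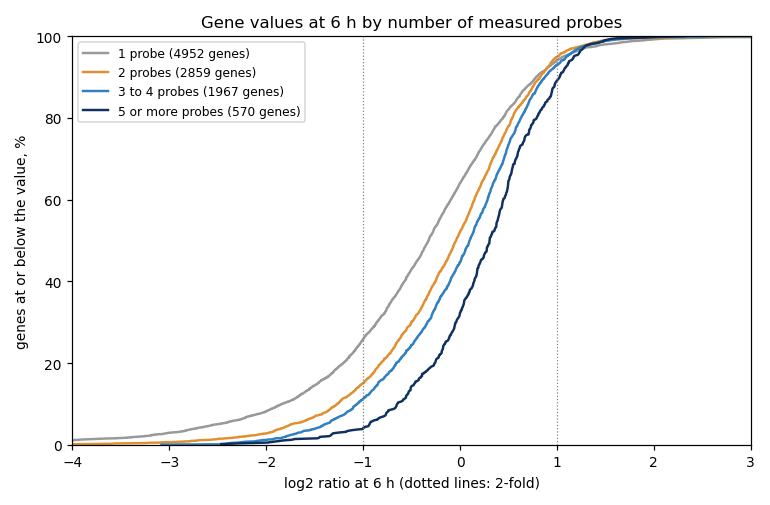
Cumulative share of genes, in percent, against their log2 ratio at 6 h, drawn for genes with 1, 2, 3 to 4, and 5 or more measured probes; dotted lines mark 2-fold. The curves move to the right as probes are added, from a median of -0.32 for 1 probe to 0.31 for 5 or more, and the left tail is longest for genes with 1 probe.

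Probes of the same gene gave the same answer more often for high genes than for low ones. Of 347 genes 2-fold higher with 2 or more probes, 254 (73.2%) had every probe above 0 and a probe SD of at most 0.5, and the median SD of the 347 was 0.27. Of 672 genes 2-fold lower with 2 or more probes, 231 (34.4%) had probes that agreed in this way, and the median SD of the 672 was 0.78. The genes described below with agreeing probes met this rule at 1.5-fold. They were 816 higher genes (15.1% of the 5396) and 504 lower ones (9.34%), so 61.8% were higher, against 36.9% of all genes past 1.5-fold. At 2-fold the shares were 52.4% with agreeing probes and 24.7% of all genes. Both shares of all genes take in those with 1 probe, which the agreeing sets leave out. Past 2-fold, the genes with 2 or more probes were 347 higher and 672 lower, whether or not their probes agreed. Without centring, 350 higher and 850 lower genes agreed, which turns the majority round, with 29.2% higher, and 7.82% of the 2-fold genes were higher. Counts of list members past 1.5-fold stand beside shares of 18.2% upward and 31.3% downward over all genes. The downward shares of the metal-handling, MAP kinase phosphatase, IL-6, zinc finger, kinesin, replication and deubiquitinase lists, from 27.1% to 33.8%, were close to that of all genes.

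The highest genes with agreeing probes encoded proteins that bind metals, handle heme and carry growth signals. Mt2, a metallothionein, stood at 4.24 (SD 0.19, n = 2 probes), a ratio of 19.0-fold, with probes at 4.38 and 4.11. Its neighbour in the metallothionein family, Mt1, had 4 probes. Its values were 5.22, 5.23, 4.63 and 0.99, so 3 probes lay near Mt2 and 1 far below (median 4.92, SD 2.03). Mt1 and Mt2 transcripts are close in sequence and may cross-hybridise, so their separate sizes are uncertain. At 12 h the Mt2 probes were at 3.11 and 3.04, and those of Mt1 at 3.26, 3.26, 3.52 and 1.02, with the same probe again the low one. The single probe of Mt4 was at 2.65 (this gene was chosen after its values were seen).

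The 250 bases before the Mt2 start are printed because they carry the metal response element, the core bound by the zinc-sensing factor MTF1, in several copies. The sequence is RefSeq's for GRCm38.p6, chr8:94172368-94172617 on the plus strand, 5′ to 3′. The capitals mark matches to TGCACNC or TGCGCNC on either strand.
Mt2: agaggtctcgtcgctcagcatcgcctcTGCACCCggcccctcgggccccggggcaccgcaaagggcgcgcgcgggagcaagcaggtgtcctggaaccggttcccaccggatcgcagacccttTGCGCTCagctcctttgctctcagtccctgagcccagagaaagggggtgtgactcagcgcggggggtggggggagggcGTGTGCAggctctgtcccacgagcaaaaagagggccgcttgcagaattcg
The matches begin 223, 128 and 50 bases before the start, and the third is read on the opposite strand. In the 300-base window that also takes in 50 bases after the start, Mt2 held 4 matches and Mt1 held 3. At least 1 match stood in 25.7% of the windows in the RefSeq table, at least 3 in 1.97% and at least 4 in 0.517%. Among windows of the agreeing higher genes 34.9% held a match, close to the 34.8% of all measured genes and the 36.3% of the agreeing lower genes. A number of copies as high as in Mt1 and Mt2 was thus rare over all windows of the table. It was not counted among measured genes, where matches were more common. At least 1 match was about as common among agreeing lower genes as among agreeing higher ones.

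The metal-handling list as a whole, in which Mt1 and Mt2 are counted, did not share the metallothioneins' values. Past 1.5-fold, 5 of its 18 measured members, Mt1 and Mt2 among them, were high and 6 low. The median of 0.06 turns to -0.26 without centring. Slc39a10 and Slc39a8, zinc importers of the cell membrane, stood at -1.38 (SD 0.53, n = 2 probes) and -1.0 (SD 1.02, n = 2 probes).

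Hmox1, heme oxygenase, stood at 4.01 (SD 0.37, n = 2 probes), with probes at 3.75 and 4.27, and at 2.78 at 12 h. Gstp1, a glutathione transferase that joins glutathione to reactive compounds, stood at 2.12 with probes at 1.86 and 2.39, and at 2.73 at 12 h. Genes of glutathione, thioredoxin and peroxide removal lay above 0 as a group. Of 28 measured, 18 reached 1.5-fold above the array median and 0 reached it below, 12 of them with agreeing probes, and the median was 0.68 against -0.11 for all genes. Txn1, thioredoxin itself, had 7 probes and stood at 1.43 (SD 0.15), and at 2.33 at 12 h. Txnip, the inhibitor of thioredoxin, was also high at 1.47 (SD 0.26, n = 3 probes). Prdx1, a peroxiredoxin that reduces hydrogen peroxide, stood at 1.22 (SD 0.17, n = 5 probes) and at 2.25 at 12 h. Glrx5, a mitochondrial glutaredoxin, stood at 1.14 (SD 0.32, n = 2 probes). The list was not uniform, and 3 members chosen after their values were seen lay a little below 0: Nqo1, a quinone reductase, at -0.11, Keap1, the sensor that restrains the oxidant-response factor NRF2, at -0.27, and Gsr, glutathione reductase, at -0.29. The antioxidant response element bound by that factor, searched as TGACNNNGC, stood in 15.6% of windows of agreeing higher genes, 12.5% of agreeing lower ones and 14.0% of all measured genes.

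**Figure D2:**
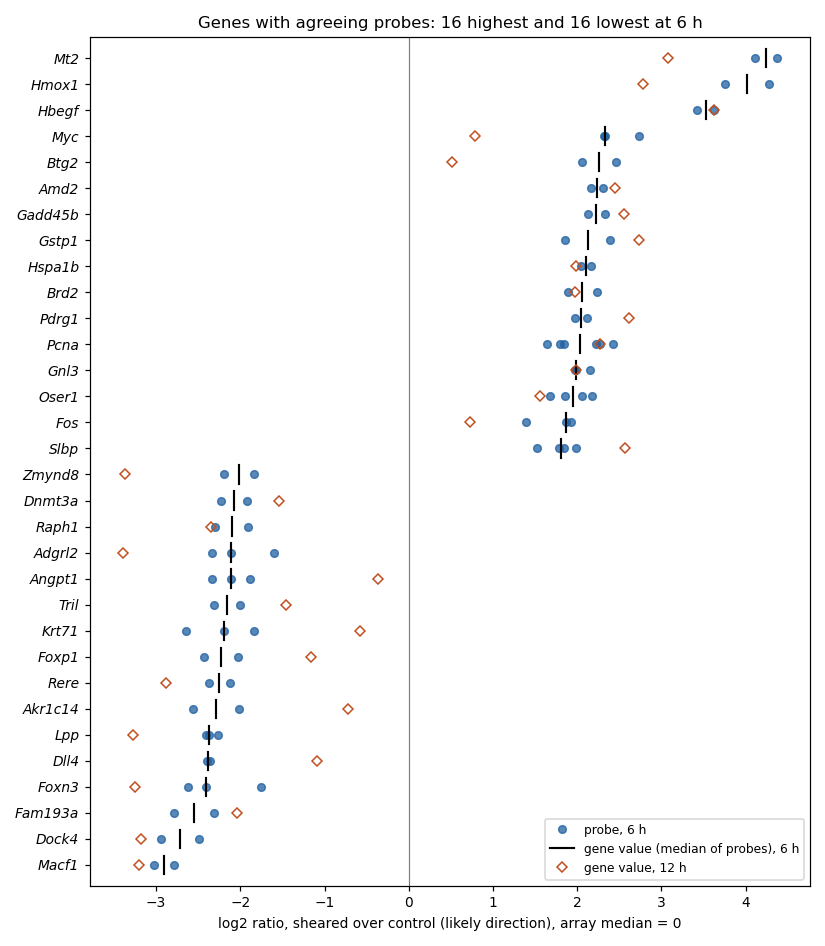
Log2 ratio of every probe at 6 h (blue points) for the 16 highest and the 16 lowest genes with agreeing probes; black bars are gene values at 6 h and open diamonds gene values at 12 h. Every gene keeps its side of 0 at 12 h, and Myc, Btg2 and Fos among the high genes and Angpt1, Krt71 and Akr1c14 among the low ones lie much nearer 0 there.

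Hbegf, Myc, Btg2, Gadd45b and Fos, genes of growth signals and early responses, were also among the 16 highest. Hbegf, heparin-binding EGF, stood at 3.52 (SD 0.15, n = 2 probes), with probes at 3.63 and 3.42, and was as high at 12 h, at 3.46 and 3.78. Its value was not shared by its pathway. Of 10 measured genes of the EGF receptor system, 1, Hbegf itself, lay 1.5-fold or more above 0 and 6 lay as far below. The median of the 10 was -0.75, or -0.19 over the members with 2 or more probes. Tgfa, another ligand of the receptor, stood at -1.28 (SD 0.27, n = 3 probes), and Adam10, a protease that sheds such ligands, at -1.08 (SD 0.42, n = 3 probes).

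Myc, a transcription factor of growth, had probes at 2.32, 2.33 and 2.73 at 6 h and at 0.78, 0.67 and 1.10 at 12 h. Fos, a subunit of the AP-1 factor, had probes at 1.93, 1.39 and 1.87 at 6 h and at 1.02, -0.001 and 0.73 at 12 h. For both genes every probe was lower at 12 h. Btg2, an antiproliferative gene, showed the same order, with probes at 2.06 and 2.47 at 6 h and 0.27 and 0.77 at 12 h. Gadd45b, a stress gene that acts on MAP kinases, did not: it stood at 2.23 at 6 h and 2.55 at 12 h. The difference between the times was not tested for any gene.

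The Btg2 promoter is shown as an early gene with a full palindromic cyclic AMP response element, the site bound by CREB and ATF factors. The sequence is RefSeq's for GRCm38.p6, chr1:134079156-134079405 on the minus strand, 5′ to 3′ with respect to the gene, and the capitals mark the match to TGACGTCA.
Btg2: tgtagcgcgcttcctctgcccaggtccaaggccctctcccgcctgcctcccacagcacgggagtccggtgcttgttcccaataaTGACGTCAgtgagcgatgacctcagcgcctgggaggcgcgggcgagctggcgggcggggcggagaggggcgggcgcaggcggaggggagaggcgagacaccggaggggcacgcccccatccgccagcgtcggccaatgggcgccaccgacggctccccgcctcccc
The match begins 166 bases before the start. This element stood in 4.76% of windows of agreeing higher genes, 2.41% of agreeing lower genes, 2.92% of all measured genes and 1.79% of all promoters of the table. The AP-1 site, TGACTCA, stood in 4.38% and 5.33% of the windows of agreeing higher and lower genes. Its share was 4.23% over the windows of all measured genes. Past 2-fold the order turned round among agreeing genes. There the AP-1 site stood in 7.17% of 251 windows of higher genes and 2.92% of 274 windows of lower ones. The CArG box of serum response factor stood in 1.5% and 1.55% of the windows of agreeing higher and lower genes.

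Most pathways that send or damp such signals were mixed. MAP kinase phosphatases and Sprouty-type inhibitors had 3 of 9 members at least 1.5-fold higher and 3 lower. Errfi1, an inhibitor of the EGF receptor, stood at 1.35 (SD 0.65, n = 2 probes), and Dusp7, a phosphatase of ERK, at -1.14 (SD 1.26, n = 2 probes). Of 15 genes of the NF-kappa-B pathway 6 were higher and 3 lower, with a median of 0.31 that turns to -0.02 without centring and to -0.19 over members with 2 or more probes. The highest of them, the inhibitor Nfkbia, had a single probe at 2.60 and was chosen after its values were seen. Birc3, a ubiquitin ligase that blocks cell death, stood at 0.66 (SD 0.15, n = 3 probes). Traf1, an adaptor of TNF receptors, stood at -1.45 (SD 0.08, n = 2 probes), and Ikbkg, the regulatory subunit of the kinase, at -0.87 (SD 0.42, n = 4 probes). The IL-6 family and its JAK-STAT genes had 3 of 21 higher and 6 lower, and Il6st, the shared receptor subunit, stood at -0.62 (SD 0.31, n = 4 probes). Of 10 prostaglandin genes 0 were higher and 5 lower, with a median of -0.68, or -0.37 over those with 2 or more probes, and Hpgd, which inactivates prostaglandins, stood at -0.82 (SD 0.45, n = 2 probes).

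Ccl2 and Tnfaip2 were high at 6 h and low at 12 h, with the widest downward differences among genes above 0 that had agreeing probes. Ccl2, a chemokine that draws monocytes, had probes at 1.65 and 1.62 at 6 h and at -0.45 and -1.11 at 12 h. Tnfaip2, a gene induced by TNF, had probes at 1.45 and 1.13 at 6 h and at -1.20 and -1.23 at 12 h. All probes of each gene thus lay on opposite sides of the array median at the 2 times.

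Hspa1b, an inducible HSP70 chaperone, stood at 2.10 (SD 0.09, n = 2 probes) and at 1.98 at 12 h. Its near-identical copy Hspa1a, chosen after its values were seen, had 1 probe at 1.93, and the copies cannot be told apart by such probes with certainty. The heat shock element, searched as GAANNTTCNNGAA or TTCNNGAANNTTC, was rare everywhere, in 0.626% of windows of agreeing higher genes and 0.461% of all measured ones. Folding of newly made proteins was represented more broadly. Of 12 genes of the TRiC chaperonin, which folds actin and tubulin, and of its helper prefoldin, 9 passed 1.5-fold upward and 1 downward, for a median of 0.84. Cct7 stood at 1.24 (SD 0.31, n = 7 probes), Cct5 at 1.20 (SD 0.38, n = 4 probes) and Cct8 at 1.11 (SD 0.15, n = 4 probes). Pfdn1, a prefoldin subunit, stood at 1.24 (SD 0.57, n = 3 probes).

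The polyamine gene Amd2 and the DNA clamp gene Pcna were also among the 16 highest. Amd2, a copy of the gene for the polyamine enzyme S-adenosylmethionine decarboxylase, stood at 2.24 (SD 0.10, n = 2 probes), although Amd1 and Amd2 are too alike for the probes to be assigned with certainty. Sat1, which acetylates polyamines for export, stood at 1.19 (SD 0.09, n = 3 probes), and Oaz1, the antizyme that leads ornithine decarboxylase to degradation, at 0.75 (SD 0.29, n = 4 probes). Of 10 polyamine genes 4 passed 1.5-fold upward and 1 downward (median 0.46). The low one was Oaz3, at -0.71 (SD 0.12, n = 2 probes). Pcna, the sliding clamp of DNA replication, had 6 probes between 1.64 and 2.42 (median 2.03). Cdc6, a licensing factor, stood at 1.33 (SD 0.15, n = 2 probes). The replication list as a whole did not follow. Of 39 measured genes, Pcna and Cdc6 included, 5 were higher and 13 lower, with a median of -0.32. Prim2, a primase subunit, stood at -0.88 (SD 0.42, n = 3 probes). Slbp, which binds the stem-loop of histone messages, stood at 1.81 (SD 0.19, n = 4 probes). Brd2, a reader of acetylated histones, stood at 2.06, Pdrg1, a gene regulated by p53, at 2.05, and Oser1, an oxidative stress gene, at 1.95.

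Lists of protein synthesis had medians above the array median. Without centring, all 7 lists with a median past 1.5-fold upward fell short of it and stayed above 0: nucleolar factors at 0.35, translation factors at 0.27, tRNA synthetases at 0.34, TRiC and prefoldin at 0.52, mitochondrial ribosomal proteins at 0.27, mitochondrial import at 0.49 and thiol redox genes at 0.36. Among 33 nucleolar assembly factors of the ribosome 20 passed 1.5-fold upward and 1 downward, 12 of the high ones with agreeing probes, for a median of 0.67. Gnl3, nucleostemin, stood at 1.99 (SD 0.10, n = 3 probes), with probes at 1.99, 2.15 and 1.97. Nip7 stood at 1.51 (SD 0.48, n = 5 probes) and Ebna1bp2 at 0.99 (SD 0.04, n = 2 probes). Initiation and elongation factors had 21 of 40 higher and 2 lower (median 0.60), among them Eif4a1, the helicase that opens messages for scanning, at 1.34 (SD 0.28, n = 4 probes). Eif6, which keeps ribosomal subunits apart, stood at 1.18 (SD 0.31, n = 4 probes), and Eef1b2, an exchange factor of elongation, at 1.22 (SD 0.37, n = 2 probes). Aminoacyl-tRNA synthetases had 12 of 20 higher and 1 lower (median 0.66). Genes of amino acid supply under the factor ATF4 were less uniform, with 6 of 15 higher and 2 lower: Asns, asparagine synthetase, stood at 0.99 (SD 0.42, n = 2 probes), and Slc38a2, an amino acid importer, at -1.25 (SD 0.14, n = 2 probes).

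Mitochondrial genes that are encoded in the nucleus followed the same direction. Of 72 mitochondrial ribosomal proteins 36 passed 1.5-fold upward and 1 downward (median 0.60), with 20 agreeing. Mrpl32 stood at 1.22 with 3 probes that differed by an SD of 0.03. Of 30 import subunits, which carry proteins across the mitochondrial membranes, 20 were higher and 1 lower (median 0.81). Timm10, a chaperone of the space between those membranes, stood at 1.55 (SD 0.15, n = 2 probes) and at 2.23 at 12 h. The citric acid cycle had 8 of 20 higher and 0 lower (median 0.42), and Mdh2, malate dehydrogenase, stood at 1.11 (SD 0.01, n = 2 probes). Fatty acid oxidation had 2 of 20 higher and 1 lower, and its median of 0.26 turns below 0 without centring.

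The Timm10 promoter is shown as a mitochondrial gene with a site for ETS factors such as GABP, which act at many genes of mitochondria and translation. The sequence is RefSeq's for GRCm38.p6, chr2:84826771-84827020 on the plus strand, 5′ to 3′, and the capitals mark the match to CCGGAAG, read here on the opposite strand.
Timm10: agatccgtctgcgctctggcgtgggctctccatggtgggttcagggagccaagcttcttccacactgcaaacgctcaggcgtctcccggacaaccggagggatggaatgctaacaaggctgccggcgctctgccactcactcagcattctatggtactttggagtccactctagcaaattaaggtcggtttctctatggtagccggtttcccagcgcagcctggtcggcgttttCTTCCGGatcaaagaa
The match begins 16 bases before the start, and the 300-base window holds 3 in all. Of the motifs searched, the ETS site had the widest gap, in percentage points, between agreeing higher and lower genes. It stood in 27.9% of 799 windows of agreeing higher genes, 12.4% of 582 windows of agreeing lower genes, 16% of windows of measured genes and 8.86% of all promoters. By function, it stood in 39.5% of windows of translation factors, 37.9% of mitochondrial import genes, 37.5% of spliceosome genes, 36.2% of mitochondrial ribosomal proteins and 33.3% of nucleolar factors. The share was 16.2% for chromatin enzymes and 9.68% for the thioredoxin and glutathione genes. The site of NRF1, another factor of mitochondrial genes, stood in 3.38% and 2.23% of the windows of agreeing higher and lower genes. The CCAAT box stood in 39.9% and 33.7%, the GC box (GGGCGG) in 63.3% and 63.1%, and the TATA box (TATAAA) in 9.64% and 9.79%. All motifs were searched on both strands of 300-base windows, for the 8358 measured genes with a promoter in the table. A match is a description of letters and not of a bound factor.

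The secretory pathway's entry point was higher, and its later steps less so. Translocon, signal peptidase and glycosylation genes had 13 of 28 past 1.5-fold upward and 0 downward (median 0.58). Ssr4, a translocon-associated protein, stood at 1.34 (SD 0.58, n = 5 probes), and Sec61g and Sec61a1, of the channel itself, at 1.10 (SD 0.30, n = 5 probes) and 1.01 (SD 0.07, n = 2 probes). Vesicle coats had 9 of 30 higher and 1 lower, the lysosomal proton pump 6 of 15 and 0, and lysosomal enzymes 6 of 25 and 0. Their medians of 0.32, 0.30 and 0.27 all turn to 0 or below without centring. Of the genes that handle messages, 20 of 42 spliceosome proteins were higher and 1 lower (median 0.51), and 19 of 38 genes of RNA polymerase II and its general factors were higher and 6 lower (median 0.53). Snrpe stood at 1.27 (SD 0.10, n = 2 probes) and Polr2d at 1.37 (SD 0.14, n = 2 probes). Snrpa, in contrast, stood at -2.85, but its 2 probes had an SD of 1.75. Ubiquitin-conjugating enzymes had 7 of 29 higher and 0 lower, while F-box proteins had 4 of 40 higher and 17 lower and deubiquitinases 4 of 48 and 16.

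SR proteins and hnRNPs, which guide splicing, had 11 of 35 past 1.5-fold upward and 2 downward (31.4% and 5.71%, median 0.38), with Ptbp1, a splicing repressor, at 1.45 (SD 0.22, n = 2 probes). Mediator subunits had 10 of 30 upward and 9 downward, and nucleoporins and importins 7 of 45 and 10, and both medians turn below 0 without centring. Ran, the GTPase of nuclear transport, stood at 1.0 (SD 0.33, n = 4 probes), and Tnpo1 of the same list at -1.27 (SD 0.25, n = 4 probes). Solute carriers had 23 of 159 upward and 56 downward (median -0.20), 6 and 9 of them with agreeing probes. Slc34a1 and Slc38a5 were the furthest from 0 among members with 2 or more probes on one side, at -2.77 and -1.92. Their probes differed by an SD of 2.12 and 1.69. Slc25a13 stood at -1.75 (SD 0.37, n = 2 probes), and Slc25a5, a mitochondrial ADP/ATP carrier with close relatives, at 1.48 (SD 0.24, n = 2 probes). Clock genes had 3 of 13 upward and 6 downward. Noct, an output gene of the clock, was the highest of them at 3.26, with probes that differed by an SD of 1.32, and stood at 0.73 at 12 h. Nr1d2, a clock repressor, stood at -1.21 (SD 0.27, n = 2 probes) and at -2.34 at 12 h.

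**Figure D3:**
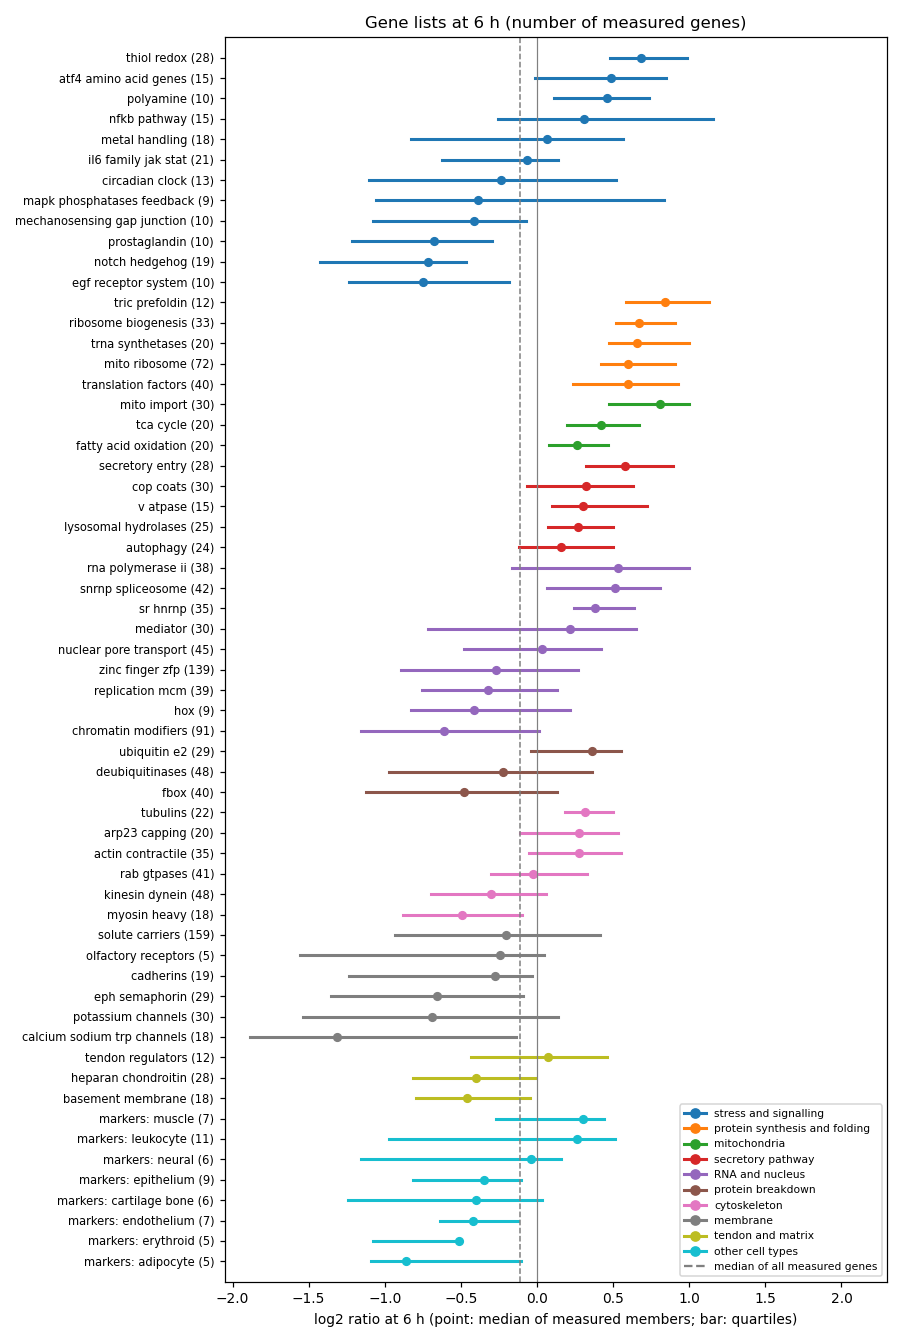
Median (point) and quartiles (bar) of the log2 ratio at 6 h for 60 gene lists, coloured by theme, with the number of measured genes in parentheses; the dashed line is the median of all measured genes, -0.11. Lists of protein synthesis and folding, mitochondrial import and thiol redox lie highest, up to 0.84 for TRiC and prefoldin. Channel, adipocyte marker, EGF receptor, and Notch and Hedgehog lists lie lowest.

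Among the 16 lowest genes with agreeing probes were Macf1, Lpp and Raph1, which act in the cytoskeleton and at cell contacts. Macf1, a giant protein that links actin to microtubules, stood at -2.91 (SD 0.17, n = 2 probes), a ratio of 7.5-fold, with probes at -3.03 and -2.78 at 6 h and -3.23 and -3.17 at 12 h. Dock4 stood at -2.72 (SD 0.32, n = 2 probes), Lpp, a protein of cell-matrix contacts, at -2.37 (SD 0.07, n = 3 probes), and Raph1, lamellipodin, which promotes protrusion of the cell edge, at -2.10 (SD 0.28, n = 2 probes).

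Motor protein lists were near the shares of all genes. Of 18 myosin heavy chains 2 were higher and 7 lower (38.9%, median -0.49), and Myh9, nonmuscle myosin, stood at -1.06 (SD 0.35, n = 2 probes). Kinesins and dyneins had 7 of 48 higher and 13 lower (27.1%), with a median of -0.30, or -0.07 over those with 2 or more probes. Kif1b, a kinesin, stood at -1.46 (SD 0.28, n = 2 probes) and Dync1h1, the dynein heavy chain, at -1.15 (SD 0.06, n = 2 probes), while Dynll1, a dynein light chain, stood at 0.99 (SD 0.13, n = 6 probes). Actins, tropomyosins and linked genes had 7 of 35 higher and 6 lower, and tubulins 3 of 22 and 1. The medians of 0.28 and 0.32 of these filament lists fall to -0.05 and -0.01 without centring. Tmsb4x, which binds actin monomers, stood at 0.87 (SD 0.17, n = 3 probes), and Mrtfa, the actin-regulated partner of serum response factor, at -1.21 (SD 0.16, n = 2 probes).

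Enzymes that modify or remodel chromatin were low as a list. Of 91 measured, 3 passed 1.5-fold upward and 46 downward, 15 of the low ones with agreeing probes, for a median of -0.61, or -0.48 with probes of several symbols kept. Dnmt3a, a DNA methyltransferase, stood at -2.07 (SD 0.22, n = 2 probes). Chd9, a remodelling enzyme, and Kmt2c, a histone methyltransferase, were at -2.49 and -2.45, but their probes differed by an SD of 1.67 and 1.20. Other nuclear regulators among the 16 lowest genes were the forkhead factors Foxn3 at -2.41 (SD 0.45, n = 3 probes) and Foxp1 at -2.23 (SD 0.29, n = 2 probes), the co-regulator Rere at -2.25 (SD 0.18, n = 2 probes) and the chromatin reader Zmynd8 at -2.02 (SD 0.25, n = 2 probes). Fam193a stood at -2.55 (SD 0.34, n = 2 probes). Zinc finger proteins of the Zfp family, whose probes can pick up related members, had 18 of 139 higher and 47 lower (median -0.27). Usp9x, a large deubiquitinase, stood at -1.99 (SD 0.34), with 6 probes.

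Notch, Hedgehog, ephrin and semaphorin genes were also low. Dll4, a Notch ligand, had probes at -2.36 and -2.39 at 6 h and at -0.87 and -1.32 at 12 h. Notch1 stood at -1.50 (SD 0.45, n = 2 probes), and of 19 Notch and Hedgehog genes 2 passed 1.5-fold upward and 13 downward (median -0.71). Ephrins, semaphorins and their receptors had 3 of 29 higher and 17 lower (median -0.65), among them Plxna4, a semaphorin receptor, at -1.65 (SD 0.04, n = 2 probes). Cadherins and linked genes were closer to all genes, with 1 of 19 higher and 7 lower (36.8%, median -0.28). Fat1, a giant cadherin, stood at -1.93 (SD 0.50, n = 2 probes) and Cdh13, a cadherin anchored by a lipid, at 0.23 (SD 0.08, n = 2 probes). Angpt1, the ligand of the endothelial receptor Tie2, had probes at -1.89, -2.11 and -2.33 at 6 h and at -0.27 and -0.46 at 12 h. Tril, a partner of Toll-like receptor 4, stood at -2.16 and Adgrl2, an adhesion receptor, at -2.10. Akr1c14, a steroid-reducing enzyme, stood at -2.28 and Krt71, a keratin of the hair follicle, at -2.19. Potassium channels had 5 of 30 higher and 16 lower, and calcium, sodium and TRP channels 1 of 18 and 12, with medians of -0.69 and -1.31. Of these genes 2 and 4 had more than 1 probe, and the medians over those were -1.38 and -0.37. The latter list's median was -0.46 at 12 h.

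Tendon genes lay on both sides of 0. Of 25 tendon regulators and markers 12 were measured, 2 of them past 1.5-fold upward and 2 downward, and their median of 0.07 (quartiles -0.43 and 0.46) turns below 0 without centring. Col1a1, the main fibrillar collagen chain, stood at -0.43 (SD 0.22, n = 4 probes), Col5a1, which sets fibril diameter, at -1.10 (SD 0.33, n = 3 probes), and Fmod, fibromodulin, at 0.55 (SD 0.33, n = 2 probes). Decorin, Col1a2 and Col3a1 were chosen after their values were seen: Dcn stood at 0.43 (n = 7 probes), Col1a2 at 0.11 and Col3a1 at 0.03 (n = 5 probes each). Basement membrane genes had 1 of 18 higher and 7 lower (38.9%, median -0.46), not far from the 31.3% lower over all genes. Lamc1, a laminin chain, stood at -1.19 (SD 0.11, n = 3 probes) and Agrn, agrin, at -1.05 (SD 0.13, n = 2 probes). Among genes that build heparan and chondroitin sulfate 2 of 28 were higher and 11 lower (median -0.40). Sdc4, a syndecan of cell-matrix contacts, was one of the higher ones at 1.01 (SD 0.36, n = 6 probes). Ext1, which polymerises heparan sulfate, had 4 probes between -1.15 and -0.68 at 6 h and between -3.80 and -1.69 at 12 h. Of the mechanosensing genes, 1 of 10 was higher and 3 were lower, and Gja1, connexin 43, stood at -0.53 (SD 0.19, n = 5 probes).

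Markers of other cell types were measured in part, and their role in the values above was not tested. Leukocyte markers had 2 of 11 members at least 1.5-fold higher and 4 lower, endothelial markers 1 of 7 and 3, muscle markers 0 of 7 and 2, and cartilage and bone markers 0 of 6 and 3. Adipocyte markers had 0 of 5 higher and 3 lower, epithelial markers 0 of 9 and 3, erythroid markers 0 of 5 and 2, and neural markers 1 of 6 and 2. The list medians ran from -0.86 for adipocyte to 0.30 for muscle markers, the latter turning below 0 without centring and to -0.76 over its members with 2 or more probes; the leukocyte median of 0.26 turned to -0.37 there.

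High and low genes differed in the length of DNA they span. The 816 agreeing higher genes spanned a median of 8.64 kb from start to end of the gene, introns included, and the 504 agreeing lower genes 66.8 kb. Of the 16 highest genes none spanned more than 13.6 kb (Oser1), and the 16 lowest spanned a median of 146 kb, with Lpp the longest at 599 kb. Tril, Krt71 and Dll4 were the compact ones among the low genes, at 5.36, 9.15 and 9.88 kb. Genes under 5 kb had a median of 0.20, with 34.0% at least 1.5-fold above 0 and 25% as far below. It was -0.06 at 20 to 40 kb, -0.35 at 40 to 80 kb and -0.70 at 80 to 160 kb. At 160 kb and over it was -0.84, and 62.2% were lower.

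Across 10328 genes the correlation of span with the value at 6 h was -0.31 (Spearman) and -0.25 (Pearson, log10 span), and across the 5396 genes with 2 or more probes it was -0.47 and -0.44. At 12 h, over 10270 genes, Spearman's value was -0.40. Genes are not independent replicates, all values of a time share 1 array and 1 pair of RNA pools, and the length of the spotted probes, the length and abundance of the transcripts and the quality of the RNA were not measured. Their part in this pattern was not tested. Span moves with gene lists described above: the median span was 7.69 kb for mitochondrial ribosomal proteins and 10.4 kb for thiol redox genes, but 44.0 kb for chromatin enzymes, 104 kb for basement membrane genes and 147 kb for ephrins and semaphorins.

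Genes with an ETS site lay higher than genes without it within the short genes. Under 10 kb, 447 genes with the site had a median of 0.55 and 47.9% were at least 1.5-fold higher, against 0.09 and 27.0% of 1905 genes without it. At 10 to 40 kb the medians were 0.16 and -0.02, and at 40 kb and over they were -0.49 and -0.57. The direction was thus the same in each range of span, and the gap was widest for short genes.

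**Figure D4:**
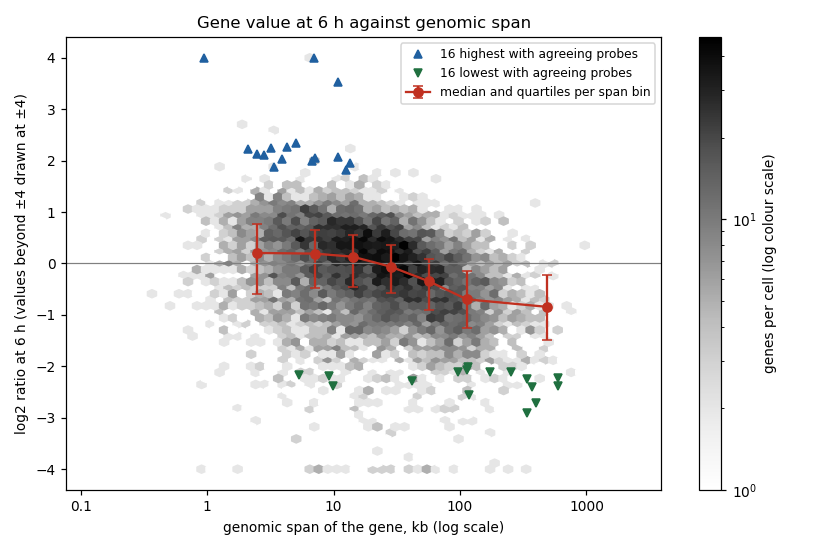
Log2 ratio at 6 h of each gene against its genomic span in kb on a log axis; grey cells show the number of genes, red points and bars the median and quartiles per range of span, and triangles the 16 highest and 16 lowest genes with agreeing probes (values beyond 4 are drawn at 4). The median falls from 0.20 under 5 kb to -0.84 at 160 kb and over.

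At 12 h, on an array with its own control, the genes found at 6 h mostly kept their side. On both arrays the sheared RNA carried the red dye, and the part of the dyes in this was not tested. Of the 816 agreeing higher genes 788 were above 0 at 12 h and 699 (85.7%) at least 1.5-fold higher, against 24.4% of all 10733 genes at 12 h. Of the 504 agreeing lower genes 485 were below 0 and 415 (82.3%) at least 1.5-fold lower, against 33.1% of all genes. Their medians went from 0.87 to 1.32 and from -0.95 to -1.23. The shares of all genes take in those with 1 probe, which the agreeing sets leave out. Leaving out transcripts without a gene name, among genes with agreeing probes at 6 h and 2 or more probes at 12 h the widest upward differences, beside that of Angpt1, were those of Rabggta, a subunit of the enzyme that prenylates Rab proteins, from 1.37 to 3.45, Lats1, a kinase of the Hippo pathway, from 0.95 to 2.92, and Krt16, a stress keratin, from 0.89 to 2.79. Setbp1, a nuclear protein, was further below 0 at 12 h, at -3.81 against -1.34. Among lists, NF-kappa-B genes stood at 0.31 at 6 h and -0.33 at 12 h, and ATF4-linked genes at 0.49 and -0.12. Nuclear pore, autophagy, tendon regulator and metal-handling lists, nearer 0 at 6 h, also had medians above 0 at 6 h and below 0 at 12 h. Thiol redox genes, by contrast, stood at 0.68 and 1.36, mitochondrial import at 0.81 and 1.39, and secretory entry at 0.58 and 1.26. None of these differences between times was tested, and the shear setting and pooling are each given for 1 of the times only.

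**Figure D5:**
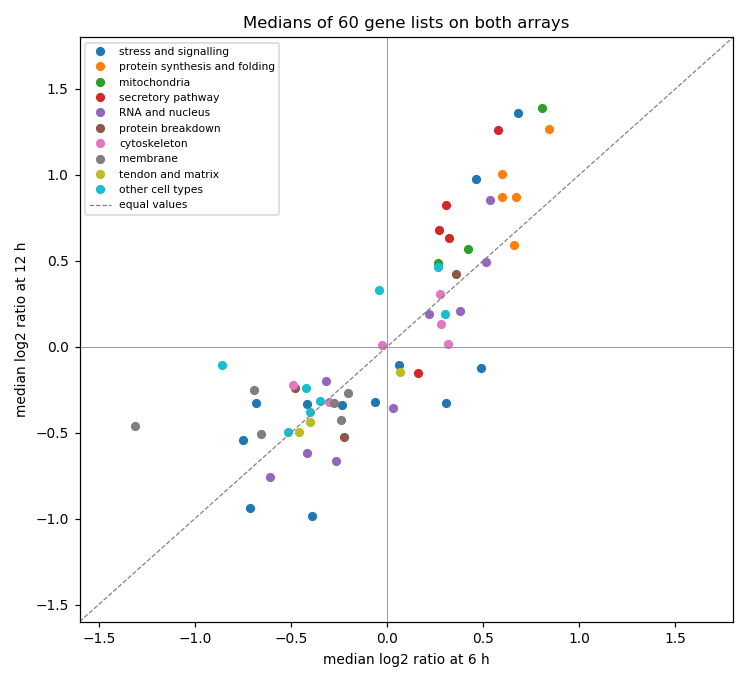
Median log2 ratio of 60 gene lists at 6 h (horizontal) and 12 h (vertical), coloured by theme; the dashed line marks equal values. Most lists lie at the lower left or upper right, high lists such as mitochondrial import (0.81 and 1.39) above the line. The lists of NF-kappa-B and ATF4-linked genes lie at the lower right, above 0 at 6 h and below 0 at 12 h. So do the nuclear pore, autophagy, tendon regulator and metal-handling lists, which are nearer 0 at 6 h.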

How the data were processed

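The authors deposited a log2 ratio per spot for each array, 42624 spots; the normalization, background correction and spot filter behind them are not given in the sources used here. The base was taken as 2. Per the labels, Cy3 held control and Cy5 sheared RNA. Each array was centred on its median. Spots were named through the platform annotation, and 21703 carried exactly 1 symbol, 1122 several and 19799 no gene; spots without a single symbol were left out of gene values. A gene was the median of its probes. Depth is unknown.

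The members and gene lists were chosen with earlier results of these data known. Genes are named as the 16 highest and 16 lowest with agreeing probes (2 or more, on one side of 0, SD at most 0.5, 1.5-fold), up to 4 members per list with the largest absolute value among those with 2 or more probes on one side of 0 (single probes where fewer than 2 qualified), and the 4 widest differences to 12 h each way among genes with agreeing probes at 6 h and 2 or more probes at 12 h; unnamed transcripts were passed over. Spans and promoters are RefSeq's, GRCm38.p6. No test was possible with 1 array per time. Python 3.11.15, pandas 2.3.3, numpy 2.4.6 and scipy 1.17.1 were used. Results on some of the genes measured are not reported here.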

Additional observations from a re-analysis of the deposited data

Results flagged for a closer look

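For 8 genes with agreeing probes at 6 h and 2 or more probes on one side of 0 at 12 h, the values were at least 1.5-fold from the median on opposite sides at the 2 times. The difference was not tested. Ccl2 stood at 1.64 at 6 h and -0.78 at 12 h. Tnfaip2 stood at 1.29 and -1.21. Casp4, an inflammatory caspase, stood at 0.88 and -0.77. Ptpn9, a phosphatase, stood at 0.78 and -0.59. Srsf3, a splicing factor with 9 probes at 6 h and 10 at 12 h, stood at 0.78 and -1.05, with a probe SD of 0.59 at 12 h. Flvcr1, a heme exporter, stood at 0.62 and -1.04. Hdac11, a histone deacetylase, stood at 0.61 and -0.74. Cyct, the cytochrome c of testis, was the only one of the 8 to be low first, at -0.65 and then 0.76.

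Spots with no gene in the annotation entered no comparison. Of 18096 measured at 6 h, 2242 (12.4%) passed 2-fold upward and 3584 (19.8%) downward, against 9.74% and 16.8% of spots with 1 symbol. Their values ran from -6.48 to 5.80.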

How the results depend on the processing

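Without centring, 246 genes in place of 641 were at least 2-fold higher, and 350 higher and 850 lower genes had agreeing probes in place of 816 and 504. With only genes of 2 or more probes, 347 were 2-fold higher and 672 lower, in place of 641 and 1951. The counts were 1888 and 3235 at 1.5-fold and 135 and 895 at 3-fold. With 3 or more probes required, 425 higher and 158 lower genes agreed. With a probe SD limit of 1.0, 796 lower genes agreed, and with no limit 1003. Print blocks were taken as runs of 900 consecutive spot numbers, and this layout is assumed. Centring by these blocks, the mean of probes and keeping probes with several symbols moved no count by over 1.5 times where they were run. Of 243 named genes, 221 were past 1.5-fold, and 0 of these changed sign without centring, with the mean of probes or with print blocks centred; 3 others did without centring. Of 60 list medians, 15 were past 1.5-fold, 7 upward and 8 downward. Without centring all 7 upward lists lost 1.5-fold, 15 further lists passed it downward, and 15 changed sign, none of them past 1.5-fold before. With only genes of 2 or more probes, 1 upward list (mitochondrial ribosome, 0.55) and 3 downward ones (EGF receptor, prostaglandin, and calcium, sodium and TRP channels) lost it. Translation factors lost it with the mean of probes (0.58) and with print blocks centred (0.57), and chromatin enzymes with several symbols kept (-0.48). Spearman's correlation with span, added after the data were seen, ran from -0.31 to -0.47. No replicate could be left out, with 1 array per time. No paired analysis was possible because there was 1 array per time. The planned comparison of protein length was not run, as no protein table was used here.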
